A study of Mus musculus with 10 samples.

Results

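Transcripts of 9 genes of steroid inactivation and conversion were followed in the uterus of HSD17B1TG mice. The genes are *Hsd11b2*, *Hsd11b1*, *Akr1c18*, *Srd5a1*, *Srd5a3*, *Sult1e1*, *Cyp1b1*, *Star* and *Hsd3b7*, chosen by name among the 29268 genes of the count table, which lists all 9. RNA-seq was available for 5 HSD17B1TG and 5 wild-type (WT) uteri, with 1 library per female mouse and all mice aged 4 months. HSD17B1TG mice are FVB/N mice heterozygous for a human *HSD17B1* cDNA, which a chicken beta actin promoter with a CMV enhancer drives in every tissue, so the transgene is not limited to the uterus, and mice of the transgenic group do not have an estrous cycle. The phase of the cycle of each WT mouse is not given in the labels, and for the histology of the same study WT uteri were taken without regard to it. The human transgene itself was not analysed here. The mice are named TG1 to TG5 or WT1 to WT5 in the order in which the samples are listed. The labels do not explain the numbers in the sample names, and mice with the same number here were not treated as pairs.

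HSD17B1 converts estrone to the more active estradiol, and the amount of a steroid that reaches its receptor in a tissue also depends on enzymes that inactivate or convert it there. Sulfation and hydroxylation remove active estrogens, reductases of the aldo-keto reductase and 5-alpha-reductase families act on progesterone and androgens, and the 11-beta-hydroxysteroid dehydrogenases switch glucocorticoids on and off. The uterus responds to estradiol and progesterone over each cycle, and its epithelium, stroma and smooth muscle differ in which of these enzymes they use. The other genes supply cholesterol for steroid synthesis, as *Star* does, or take part in bile acid and dolichol synthesis, as *Hsd3b7* and *Srd5a3* do.

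Each mouse had 14817228 to 23271988 counts on genes. Mitochondrial genes took 1.94% to 7.57% of them in HSD17B1TG and 2.58% to 3.37% in WT. The values below are the deposited FPKM (fragments per kilobase, a level per transcript length at a common depth), which are scaled by size factors, so they can be set beside each other between genes and between mice. Log2 fold changes are HSD17B1TG over WT from edgeR's quasi-likelihood test on the counts, adjusted after Benjamini and Hochberg across all 16993 tested genes. A gene was called when its adjusted p was under 0.05, its fold change over 2 and its mean FPKM over 1 in either group. Of all genes tested, 721 were called (4.24%), 367 up and 354 down (2.08%), 1046 (6.16%) had an adjusted p under 0.05, 4430 (26.1%) had an unadjusted p under 0.05, and 1137 (6.69%) had FPKM that did not overlap between the groups. The split was 312 up and 404 down after upper quartile normalization, 292 and 349 without the filter on low counts, 391 and 189 with limma voom, 416 and 228 with limma on log2(FPKM + 1), and 923 and 674 with DESeq2, which was run on all 29268 genes without that filter.

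Of the 9 genes, 7 had enough counts to be tested. Only *Hsd11b2* was called, and it was lower in the HSD17B1TG uterus. It was also the only one of the 7 whose groups did not overlap. The other 6 had adjusted p between 0.203 and 0.817, *Star* with a positive and 5 with a negative log2 fold change, and the median log2 fold change of the 7 was -0.55 beside 0.002 for all genes tested. The signs were not stable, since 4 of the 7 were positive without WT5, with a median of 0.15, and 3 with limma voom on all mice. With 1 gene called among 7, the count says little beyond *Hsd11b2* itself.

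**Figure D1:**
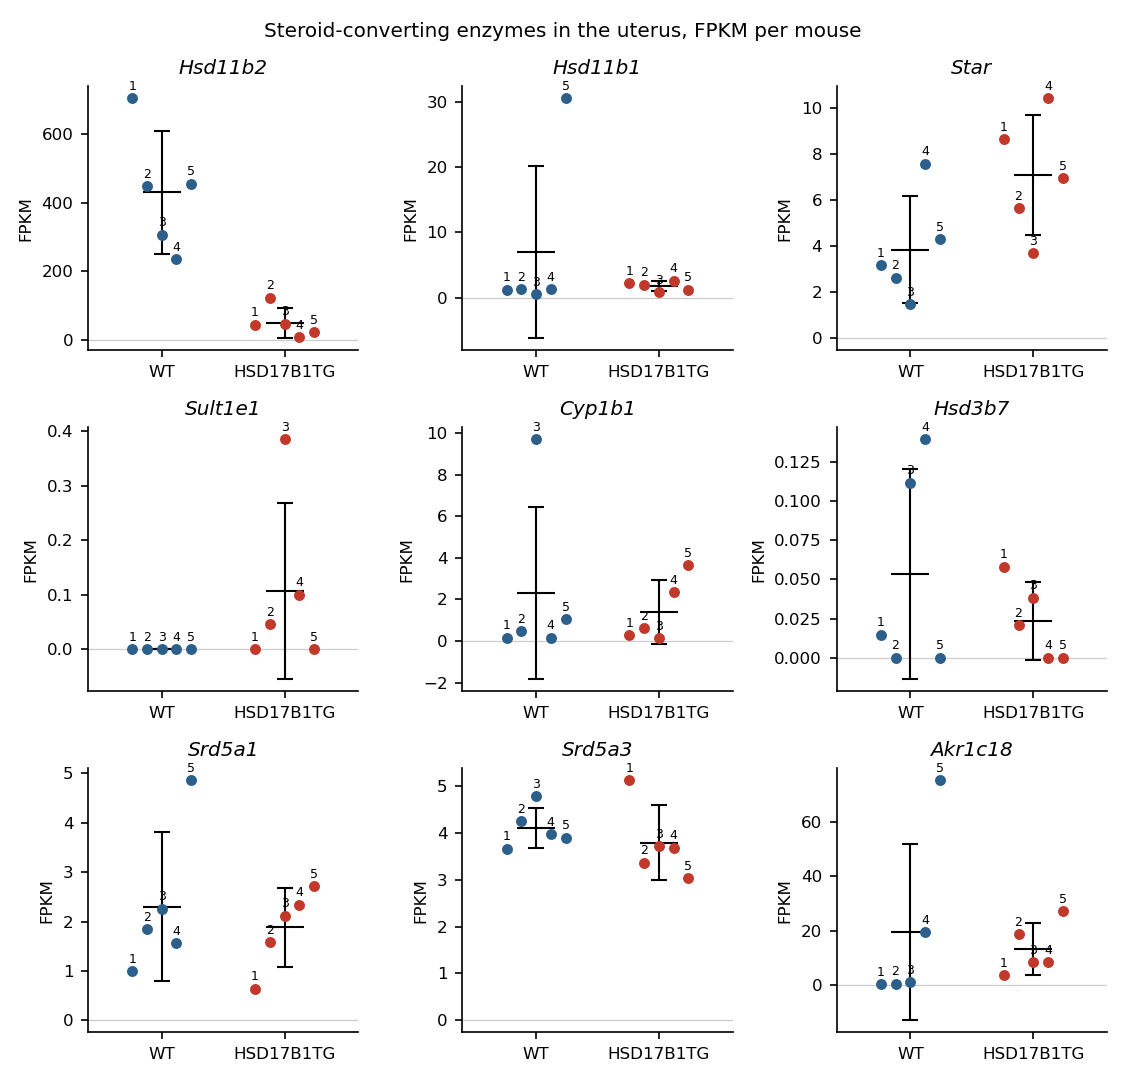
FPKM of the 9 genes in each mouse (points, numbered as TG1 to TG5 and WT1 to WT5), with the group mean and SD (horizontal bar and whiskers, n = 5 per group, linear axes that differ between panels). *Hsd11b2* separates the groups, while single WT mice stand far from the others in *Hsd11b1*, *Cyp1b1* and *Akr1c18*.

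*Hsd11b2* (ENSMUSG00000031891, GRCm38 chr8:105518755-105523988, plus strand) encodes 11-beta-hydroxysteroid dehydrogenase type 2, which turns active corticosterone into inactive 11-dehydrocorticosterone. Its level was 706 FPKM in WT1, 448 in WT2, 307 in WT3, 236 in WT4 and 455 in WT5. In the HSD17B1TG uterus it was 44.2 FPKM in TG1, 123 in TG2, 47.8 in TG3, 7.89 in TG4 and 21.6 in TG5. Every HSD17B1TG mouse lay below every WT mouse, and TG4 was the lowest and TG2 the highest of the transgenic group. The share of mitochondrial counts was 6.87% in TG4 and 7.57% in TG5, the mice with the least *Hsd11b2*, and 1.94% in TG2. It was 5.74% in TG1 and 2.49% in TG3, which had similar *Hsd11b2*, and 3.37% in WT4. The part of this share in the result was not tested. The means were 48.9 ± 44.5 FPKM in HSD17B1TG and 430 ± 180 FPKM in WT (SD, n = 5 each), an 8.80-fold difference of means. *Hsd11b2* fell by 3.14 on the log2 scale (SE 0.64, edgeR adjusted p = 0.0268), and an exact two-sided permutation of log2(FPKM + 1) gave p = 0.00794, the lowest value possible with 5 mice in each group.

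The spread of *Hsd11b2* was wider in the transgenic mice. On the log2 CPM scale its SD was 1.47 in HSD17B1TG and 0.60 in WT, and the SD in HSD17B1TG was larger than that of 96.6% of the genes tested. The highest and the lowest HSD17B1TG mouse differed 15.6-fold, the corresponding WT mice 2.99-fold. When each mouse was left out in turn, the log2 fold change stayed between -3.83 and -2.86. The adjusted p of the edgeR test was above 0.05 without TG5 (0.0668), WT1 (0.0523), WT2 (0.0624), WT3 (0.0534) or WT5 (0.0660), and the call was kept without any one of the other 5 mice.

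**Figure D2:**
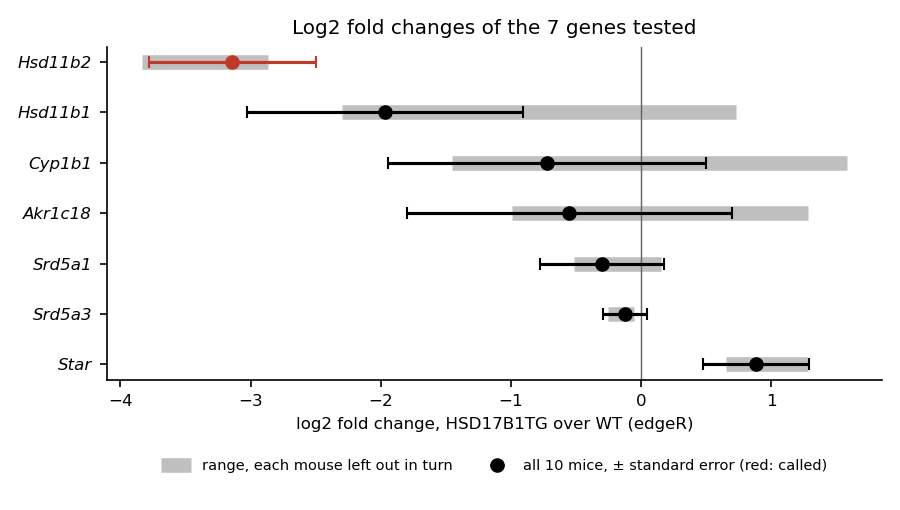
Log2 fold change (HSD17B1TG over WT, edgeR) of the 7 genes tested, with its standard error (whiskers) and the range of the estimate when each of the 10 mice was left out in turn (grey bars). Only *Hsd11b2* (red) was called, and the grey bars of *Hsd11b1*, *Cyp1b1*, *Akr1c18* and *Srd5a1* reach both sides of 0.

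Marker transcripts of the cell types of the uterus also varied between these mice. In whole tissue, fewer cells of a type and less RNA per cell cannot be told apart. Summed stromal markers lay between 668 and 2719 FPKM in HSD17B1TG and between 2173 and 2936 FPKM in WT. Of these 10 markers, 9 were lower and 4 called down. Beside the counts in this paragraph, edgeR called 2.08% of all genes tested down, and 26.1% had an unadjusted p under 0.05. Summed epithelial markers were 725 to 3415 FPKM in HSD17B1TG and 510 to 1710 FPKM in WT, with all 10 higher, 0 called by edgeR, 8 with an unadjusted p under 0.05 and 3 called by DESeq2. Summed smooth muscle markers, 846 to 7243 FPKM in HSD17B1TG and 404 to 5721 FPKM in WT, overlapped widely, with all 8 markers higher, 0 of them called by edgeR or DESeq2 and 0 with an unadjusted p under 0.05. Summed endothelial markers were 14.2 to 55.5 FPKM in HSD17B1TG and 35.3 to 90.0 FPKM in WT, with all 5 lower, 0 called by edgeR, 3 with an unadjusted p under 0.05 and 1 called by DESeq2. Set against 1000 FPKM of stromal markers, *Hsd11b2* was 38.3 ± 34.3 FPKM in HSD17B1TG and 176 ± 84.2 FPKM in WT (SD, n = 5 each), a 4.61-fold difference of means in place of the 8.80-fold difference without that scaling. On this scale the groups met, with 93.8 in TG2 and 90.7 in WT4. Against epithelial markers the difference of means was 18.9-fold, and against smooth muscle markers 21.3-fold, where TG2 (49.8) lay above WT4 (41.2). How much of the difference in *Hsd11b2* goes with the amount of stroma was not tested further.

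**Figure D3:**
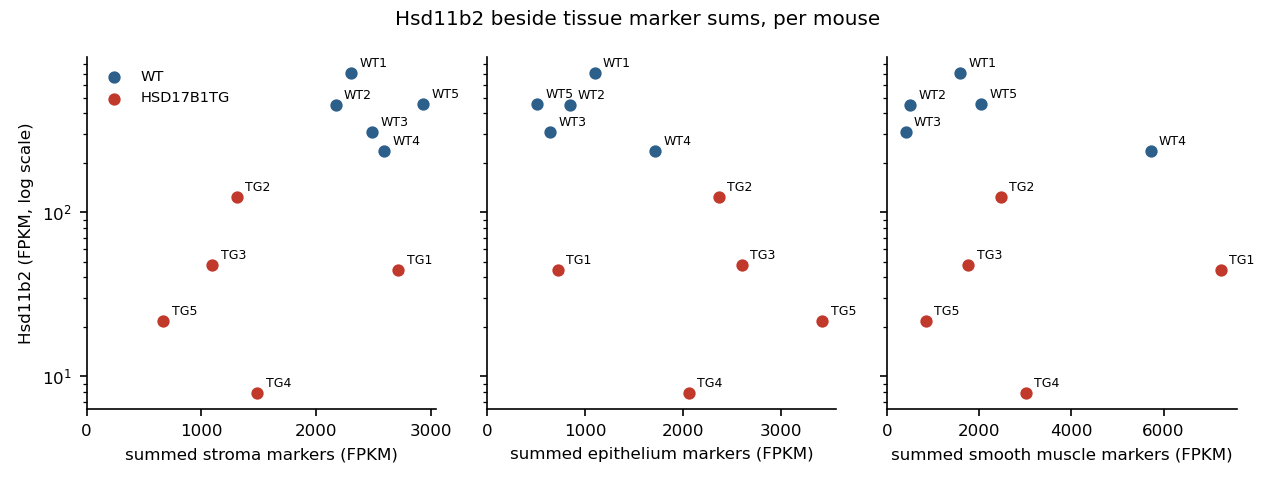
*Hsd11b2* (FPKM, log axis) against the summed FPKM of stromal, epithelial and smooth muscle markers (linear axes) in each mouse, HSD17B1TG in red and WT in blue. TG1 had 2719 FPKM of stromal markers, within the WT range, and 44.2 FPKM of *Hsd11b2*. TG2 had 1311 FPKM of stromal markers, below the WT range, and 123 FPKM of *Hsd11b2*.

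TG1 and TG2 differed in *Hsd11b2* set against stromal markers. The stromal markers of TG1 summed to 2719 FPKM, more than in 4 of the 5 WT mice. Its *Hsd11b2* was 16.3 FPKM per 1000 FPKM of these markers, against at least 90.7 in every WT mouse. Its smooth muscle markers were the highest of all 10 mice, at 7243 FPKM. In TG2 the stromal markers summed to 1311 FPKM, below every WT mouse. The *Hsd11b2* of TG2 was 93.8 FPKM per 1000 FPKM of them, above WT4 at 90.7. Each is a single mouse, and the part of stroma was not tested.

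The genes whose profile over the 10 mice was most like that of *Hsd11b2* were *Tmem119*, *Wnt5a* and *Chsy1*. Likeness was the root mean square difference between standardised log2 CPM profiles, which was 0.198, 0.277 and 0.278 SD for these genes. *Wnt5a*, which encodes a secreted Wnt ligand, lay between 3.35 and 13.1 FPKM in HSD17B1TG and between 20.5 and 62.5 FPKM in WT. *Chsy1*, a chondroitin sulfate synthase, lay between 6.22 and 14.1 FPKM in HSD17B1TG and between 36.6 and 72.2 FPKM in WT. The membrane protein gene *Tmem119* lay between 11.7 and 40.5 FPKM in HSD17B1TG and between 63.5 and 117 FPKM in WT. All 3 were chosen by their likeness to a gene that differs between the groups, so their own difference is a description.

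*Hsd11b1* (ENSMUSG00000016194, GRCm38 chr1:193221634-193264075, minus strand) encodes the type 1 enzyme, which mainly runs the opposite reaction and regenerates corticosterone. Its level was 2.27, 2.0, 0.825, 2.63 and 1.24 FPKM in TG1 to TG5. In WT1 to WT4 it was 1.21, 1.26, 0.525 and 1.25 FPKM, and in WT5 it was 30.6 FPKM. WT5 alone set the WT mean of 6.98 ± 13.2 FPKM (SD, n = 5), since the other 4 WT mice averaged 1.06 ± 0.359 FPKM. The log2 fold change of -1.97 (SE 1.06, edgeR adjusted p = 0.268) accordingly became 0.73 (adjusted p = 0.325) without WT5, and the exact permutation test over all 10 mice gave p = 0.937. *Lamb3*, *4930570N18Rik* and *Gm38118* overlap the locus of *Hsd11b1*, and the strand setting of the counting is not given in the sources used here.

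*Hsd11b2* exceeded *Hsd11b1* in every mouse, by a ratio of FPKM that differed between them. It was 585, 355, 584 and 188 in WT1 to WT4 and 14.9 in WT5. It was 19.5, 61.5, 57.9, 3.0 and 17.5 in TG1 to TG5. All 5 HSD17B1TG mice thus had a lower excess of the inactivating enzyme's transcript than WT1 to WT4, and WT5 lay among them through its high *Hsd11b1*. The mean log2 ratio of *Hsd11b1* to *Hsd11b2*, with 0.1 FPKM added to both, was -4.27 ± 1.74 in HSD17B1TG and -7.54 ± 2.14 in WT (SD, n = 5 each). The difference of 3.27 had a two-sided exact permutation p = 0.0476. With 1 mouse left out the difference lay between 2.59 and 4.18, and its exact p lay between 0.0635 and 0.0952 without any one of the other 9 mice and was 0.0159 without WT5. The ratio contains *Hsd11b2* and is not independent of the result on that gene.

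**Figure D4:**
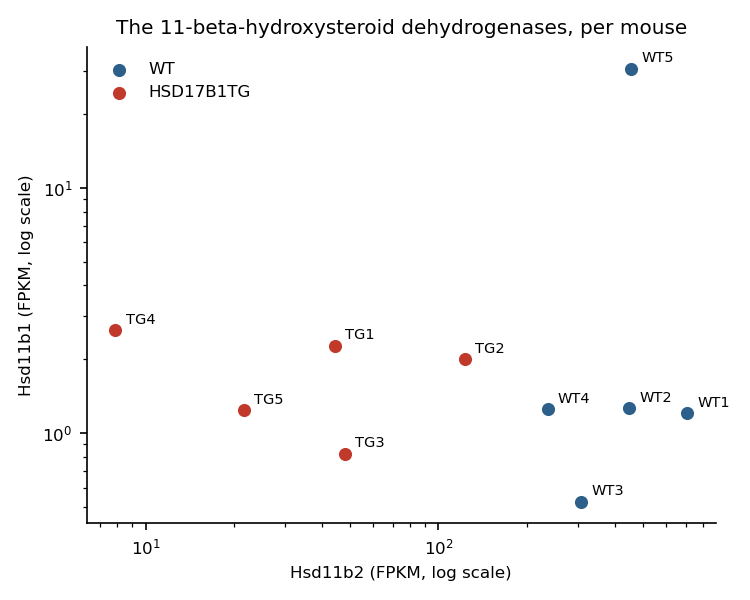
*Hsd11b1* against *Hsd11b2* in each mouse (FPKM, both axes logarithmic), HSD17B1TG in red and WT in blue. The groups part along the *Hsd11b2* axis, and WT5 stands apart from the other 9 mice along the *Hsd11b1* axis at 30.6 FPKM.

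Genes that supply the cofactor of *Hsd11b1* or respond to glucocorticoids formed a list of 7, all tested. Of these, 0 were called up, 1 was called down and 6 had an unadjusted p under 0.05. Of all genes tested, 2.08% were called down and 26.1% had an unadjusted p under 0.05. The median log2 fold change of the list was -0.98, over both kinds of gene. *Fkbp5*, a chaperone gene induced by glucocorticoids and progestins, lay between 0.760 and 1.56 FPKM in HSD17B1TG and between 2.14 and 5.04 FPKM in WT, without overlap. It fell by 1.65 on the log2 scale (SE 0.28, edgeR adjusted p = 0.0199), and the call was lost without TG2, TG4 or TG5 (adjusted p up to 0.0542). The circadian gene *Per1* had an adjusted p of 0.0342 with a log2 fold change of -0.98, just under the fold threshold, with 4.26 to 7.33 FPKM in HSD17B1TG and 7.49 to 15.8 FPKM in WT. *Sgk1*, a kinase gene that the same hormones induce, had a log2 fold change of 0.97 in the opposite direction (adjusted p = 0.078). *Tsc22d3* and *Zbtb16*, also induced by glucocorticoids, had log2 fold changes of -1.02 and -1.98 (adjusted p = 0.161 and 0.159 by edgeR). *H6pd*, which makes the NADPH that the type 1 enzyme uses, was at 30.7 ± 7.36 FPKM in HSD17B1TG and 19.4 ± 6.61 FPKM in WT (SD, n = 5 each, adjusted p = 0.126 by edgeR).

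*Akr1c18* (ENSMUSG00000021214, GRCm38 chr13:4132615-4150654, minus strand) encodes 20-alpha-hydroxysteroid dehydrogenase, which inactivates progesterone. It was the most uneven of the 7 tested genes among WT mice. Its level was 0.337 FPKM in WT1, 0.480 in WT2, 1.13 in WT3, 19.5 in WT4 and 75.6 in WT5, a 224-fold range. The 5 HSD17B1TG mice lay inside that range, at 3.51, 18.6, 8.5, 8.32 and 27.3 FPKM in TG1 to TG5. Their level was thus above that of WT1 to WT3, while WT5 was above all of them. On the log2 CPM scale the SD among WT mice was 3.32, larger than that of 99.9% of the genes tested, against 1.14 among HSD17B1TG mice. The log2 fold change was -0.55 (SE 1.25, edgeR adjusted p = 0.817) and took the other sign without WT5 (1.28, adjusted p = 0.547), with limma voom (1.71) and with limma on log2(FPKM + 1) (1.01). No direction can be given for *Akr1c18*. It stands in a cluster of similar *Akr1c* genes, and the handling of reads that match several of them is not given in the sources used here.

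*Srd5a1* (ENSMUSG00000021594, GRCm38 chr13:69573449-69611442, minus strand) encodes a steroid 5-alpha-reductase, which reduces progesterone and testosterone. It was at 0.645, 1.58, 2.12, 2.35 and 2.72 FPKM in TG1 to TG5 and at 0.993, 1.85, 2.26, 1.56 and 4.87 FPKM in WT1 to WT5. The groups overlapped, with TG1 the lowest and WT5 the highest of the 10 mice. The log2 fold change was -0.30 (SE 0.47, edgeR adjusted p = 0.733), and 0.15 without WT5. *Nsun2* and *Gm17108* overlap its locus.

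*Srd5a3* (ENSMUSG00000029233, GRCm38 chr5:76140271-76155504, plus strand) encodes a member of the same family that is best known for making dolichol, the lipid carrier of N-glycosylation. It was the most even of the 7 genes tested. Its level was 5.12, 3.36, 3.72, 3.68 and 3.03 FPKM in TG1 to TG5 and 3.66, 4.25, 4.78, 3.97 and 3.90 FPKM in WT1 to WT5. The log2 fold change was -0.13 (SE 0.17, edgeR adjusted p = 0.687) and stayed between -0.26 and -0.05 with each mouse left out. Of 12 other genes of dolichol synthesis and use, all tested, 0 were called by edgeR and 1 by DESeq2, and 4 had an unadjusted p under 0.05, beside 26.1% of all genes tested. Among them the dolichyl diphosphate phosphatase gene *Dolpp1* had the lowest adjusted p, 0.0684, with 14.3 ± 4.41 FPKM in HSD17B1TG and 6.63 ± 3.35 FPKM in WT (SD, n = 5 each).

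The other genes of 5-alpha reduction and aldo-keto reduction, 9 tested of 13 chosen, held 2 called up and 0 called down, with a median log2 fold change of 1.53. *Akr1c13* lay between 12.1 and 39.2 FPKM in HSD17B1TG and between 1.87 and 8.70 FPKM in WT, without overlap, and rose by 1.97 on the log2 scale (SE 0.43, edgeR adjusted p = 0.0322). The call was lost without TG2, TG4, TG5, WT1, WT2, WT3 or WT5 (adjusted p up to 0.0772). Summed epithelial markers were 725, 2361, 2598, 2056 and 3415 FPKM in TG1 to TG5, the same order of mice as *Akr1c13* at 12.1, 22.7, 24.3, 15.8 and 39.2 FPKM. In WT1 to WT5 the sums were 1096, 843, 643, 1710 and 510 FPKM. *Akr1c13* was at 6.86, 8.70, 4.19, 7.43 and 1.87 FPKM there, a different order of mice. The part of epithelial markers in the levels of this list was not tested. *Akr1c21*, a 3-alpha- and 17-alpha-hydroxysteroid dehydrogenase gene, lay between 0.372 and 2.76 FPKM in HSD17B1TG, while WT1 was at 0.244, WT4 at 0.0645 and the other 3 WT mice at 0, with a fitted log2 fold change of 4.34. It had enough counts for the test only through the HSD17B1TG mice, so its call is a description, and it was lost without TG2, TG4, TG5, WT2, WT3 or WT5. *Srd5a2*, the second 5-alpha-reductase gene, was at 1.07 ± 0.841 FPKM in HSD17B1TG and 0.616 ± 0.779 FPKM in WT (adjusted p = 0.643 by edgeR). *Dhrs9*, a retinol and 3-alpha-hydroxysteroid dehydrogenase gene, was at 34.1 ± 16.3 FPKM and 9.01 ± 11 FPKM, respectively (adjusted p = 0.155 by edgeR). *Akr1c13* and *Akr1c21* share the limit on similar genes given for *Akr1c18*.

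*Sult1e1* (ENSMUSG00000029272, GRCm38 chr5:87575969-87591594, minus strand) encodes estrogen sulfotransferase, which inactivates estradiol and estrone. It was at the edge of detection. The counts were 0, 1, 9, 2 and 0 in TG1 to TG5 and 0 in each of WT1 to WT5, so 9 of all 12 counts came from TG3. Over the group, 12 counts among 91399058 in HSD17B1TG stand against 0 among 94462622 in WT, which is at least 4.13-fold higher in HSD17B1TG when WT is set to a floor of 3 counts over the group. This bound pools the reads of each group, covers counting error in WT only and rests mostly on the 9 counts of TG3. It does not cover the spread between mice. Without TG3 the transgenic mice held 3 counts, no more than the floor, and no fold was computed. The gene had too few counts for the filter, and without the filter its edgeR adjusted p was 0.190.

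Among the other genes of sulfation, 9 tested of 11 chosen, 0 were called up and 1 down, and the median log2 fold change was -0.04. The called gene was *Sult1d1*, a sulfotransferase of catechols and other phenols. Its level was 0.567, 1.17, 0.605, 1.89 and 7.21 FPKM in TG1 to TG5 and 20.3, 53.5, 87.4, 3.96 and 54.5 FPKM in WT1 to WT5. TG5 lay above WT4, so the groups overlapped in these mice. *Sult1d1* fell by 4.28 on the log2 scale (SE 0.94, edgeR adjusted p = 0.0336), and the call was lost without TG2, TG4, WT1, WT2, WT3 or WT5 (adjusted p up to 0.0847). *Sult1a1*, the phenol sulfotransferase gene, was at 3.57 ± 1.65 FPKM in HSD17B1TG and 9.95 ± 10.4 FPKM in WT (adjusted p = 0.176 by edgeR), and *Papss1*, which makes the sulfate donor, at 29.3 ± 5.32 and 29.9 ± 1.52 FPKM. The steroid sulfatase gene *Sts* is not listed in the table.

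*Cyp1b1* (ENSMUSG00000024087, GRCm38 chr17:79706953-79715041, minus strand) encodes the P450 that hydroxylates estradiol, mainly at position C4 of the A ring, and is induced through the aryl hydrocarbon receptor. It is shown with its promoter because it is the member whose upstream window held letters of both the estrogen receptor element and the aryl hydrocarbon receptor core. The 250 bases before its start site (RefSeq, GRCm38.p6, chr17:79715062-79715311, minus strand), with these letters in capitals, read as follows.
Cyp1b1: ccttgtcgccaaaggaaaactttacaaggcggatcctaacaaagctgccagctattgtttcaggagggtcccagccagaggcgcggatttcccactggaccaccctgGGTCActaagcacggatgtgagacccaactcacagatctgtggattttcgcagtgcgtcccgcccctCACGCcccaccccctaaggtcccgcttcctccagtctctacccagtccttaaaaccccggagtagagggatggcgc

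Promoters of 7 of the 9 genes were searched on both strands, from 250 bases before to 50 after the start site, and *Hsd11b2* and *Star* were not among them. GGTCA, the repeated unit of the estrogen receptor element, occurred in *Sult1e1* (from position -113), *Cyp1b1* (-143), *Akr1c18* (28) and *Hsd3b7* (-10), and in 40.5% of the 32544 promoters of the reference. GCGTG, the core of the aryl hydrocarbon receptor element (CACGC on the other strand), occurred in *Cyp1b1* (-76), *Srd5a1* (-32) and *Hsd11b1* (-111), and in 32.6% of all promoters. AGAACA, a unit of the progesterone and glucocorticoid receptor element, occurs in 18.9% of all promoters, and the palindrome of GGTCA with a spacer of 3 bases in 0.0707%. Neither was found in the 7 promoters. The motifs do not overlap in these windows, and a match of so few letters describes the sequence and not a bound site.

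The level of *Cyp1b1* was 0.282, 0.628, 0.135, 2.33 and 3.66 FPKM in TG1 to TG5 and 0.159, 0.482, 9.71, 0.161 and 1.04 FPKM in WT1 to WT5. WT3 was the highest of all 10 mice, followed by TG5 and TG4. Without WT3 the WT mean changed from 2.31 ± 4.15 FPKM (SD, n = 5) to 0.460 ± 0.414 FPKM (SD, n = 4), beside 1.41 ± 1.53 FPKM in HSD17B1TG. The log2 fold change was -0.72 (SE 1.22, edgeR adjusted p = 0.753) and 1.58 without WT3 (adjusted p = 0.399). The SD on the log2 CPM scale was larger than that of 99.1% of the genes tested in HSD17B1TG and of 99.3% in WT.

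Other genes of estrogen hydroxylation and methylation, 7 tested of 9 chosen, held 1 called up and 0 called down, with a median log2 fold change of 0.29. The called gene was *Por*, the reductase that passes electrons to microsomal P450 enzymes, at 25.6, 71.8, 60.1, 57.5 and 87.7 FPKM in TG1 to TG5 and 20.2 to 31.6 FPKM in WT. TG1 lay within the WT range and the other 4 HSD17B1TG mice above it, and *Por* rose by 1.14 on the log2 scale (SE 0.28, edgeR adjusted p = 0.0437). The call was kept only without TG1 or WT4 (adjusted p otherwise up to 0.102). *Nqo1*, which reduces estrogen quinones, was at 12.4 ± 8.14 FPKM in HSD17B1TG and 4.63 ± 3.25 FPKM in WT (SD, n = 5 each, adjusted p = 0.127 by edgeR). *Cyp1a1* is listed but had too few counts to be tested. Of 6 glucuronidation genes tested, of 11 chosen, 0 were called by edgeR and 2 by DESeq2, and 2 had an unadjusted p under 0.05 with edgeR, *Ugt1a6a* (log2 fold change 1.08, adjusted p = 0.0736) and *Ugt1a7c* (2.09, adjusted p = 0.122), which share exons. This too stands beside 26.1% of all genes tested.

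*Star* (ENSMUSG00000031574, GRCm38 chr8:25806555-25815982, plus strand) encodes the protein that moves cholesterol into mitochondria, the first regulated step of steroid synthesis. Its level was 8.65, 5.66, 3.71, 10.4 and 6.95 FPKM in TG1 to TG5 and 3.18, 2.64, 1.49, 7.58 and 4.32 FPKM in WT1 to WT5. TG3 lay below WT4 and WT5, and WT4 lay above TG2, TG3 and TG5, so the groups overlapped. The means were 7.08 ± 2.60 FPKM in HSD17B1TG and 3.84 ± 2.32 FPKM in WT (SD, n = 5 each). The log2 fold change of 0.88 (SE 0.41) did not pass the threshold (edgeR adjusted p = 0.203, two-sided exact permutation p = 0.0714). Without WT4 it was 1.28 with an adjusted p of 0.0447, and it was positive with each mouse left out, from 0.65 upward.

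Of the steroid synthesis genes that act after *Star*, *Cyp11a1*, which starts steroid synthesis from cholesterol, was listed with too few counts to be tested, and aromatase (*Cyp19a1*) is not listed. The ovarian markers *Fshr* and *Zp3* are not listed either, *Nr5a1* had at most 3 counts in any mouse, and summed ovarian markers lay between 14.1 and 22.4 FPKM in HSD17B1TG and between 22.5 and 58.0 FPKM in WT, lower in each HSD17B1TG mouse. The means of *Cyp11a1*, *Cyp17a1* and *Nr5a1* were at most 0.101 FPKM in either group, so these sums came almost wholly from other markers of the list. Whether the sums measure ovarian RNA was not tested. Only 4 of the 12 ovarian markers could be tested, 1 higher and 3 lower, with 1 called down and a median log2 fold change of -0.08. The part of ovarian RNA in the level of *Star* was not tested. *Cyp21a1*, the steroid 21-hydroxylase gene, named after its values were seen, was above *Star* in every HSD17B1TG mouse, at 13.9, 43.5, 45.0, 43.5 and 70.6 FPKM in TG1 to TG5, and at 9.52, 2.26, 0, 26.0 and 0.0228 FPKM in WT1 to WT5. WT4 lay above TG1, and the log2 fold change of 2.52 (SE 1.24, edgeR adjusted p = 0.226) did not pass the threshold. Of 11 genes of cholesterol delivery and steroid synthesis tested, of 21 chosen, 2 were called up and 1 down. The hormone-sensitive lipase gene *Lipe*, which frees cholesterol from its esters, rose by 1.92 on the log2 scale (SE 0.37, edgeR adjusted p = 0.0234). It lay between 2.69 and 5.26 FPKM in WT and between 7.33 and 31.4 FPKM in HSD17B1TG, without overlap. Summed adipocyte markers were 3.18 to 110 FPKM in HSD17B1TG and 0.233 to 22.5 FPKM in WT. TG4 was highest for them, while TG5, at 4.17 FPKM, was highest for *Lipe*. Their part in the level of *Lipe* was not tested. *Stard3*, an endosomal cholesterol transporter of the *Star* family, rose by 1.08 (adjusted p = 0.0445). *Soat1*, which esterifies cholesterol, fell by 1.40 (adjusted p = 0.0471), with TG1 (4.06 FPKM) at the level of WT1 (4.00 FPKM). The call of *Lipe* was lost without TG2, TG5, WT1, WT2, WT3 or WT5 (adjusted p up to 0.0624), and those of *Stard3* and *Soat1* were kept only without TG1 or WT4 (adjusted p otherwise up to 0.111).

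The genes most like *Star* over the 10 mice were *Mmrn1*, *Slpi* and *Gm41307*, at root mean square differences of 0.166, 0.218 and 0.226 SD. *Slpi*, a secreted protease inhibitor of epithelia, was highest in TG4 (17.8 FPKM) and lowest in WT3 (0.578 FPKM), the same mice that were highest and lowest for *Star*. Those most like *Hsd11b1* were *Wfikkn2*, *Atp6v0d2* and *Hpgds*, at 0.372, 0.425 and 0.438 SD. Each of these was highest in WT5, at 9.28, 12.0 and 7.19 FPKM, respectively. None of the 6 had an edgeR adjusted p under 0.05, and their adjusted p lay between 0.103 and 0.859.

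*Hsd3b7* (ENSMUSG00000042289, GRCm38 chr7:127800604-127803802, plus strand) encodes the 3-beta-hydroxysteroid dehydrogenase of bile acid synthesis, which also inactivates oxysterols that guide immune cells. It was barely detected. The counts were 3, 1, 2, 0 and 0 in TG1 to TG5 and 1, 0, 5, 8 and 0 in WT1 to WT5, in all 6 counts in HSD17B1TG and 14 in WT. It had too few counts to be tested, and a difference was not detectable at this depth. *Gm49388* and *9430064I24Rik* overlap its locus.

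The other oxysterol and bile acid genes, 9 tested of 13 chosen, held 1 called up and 0 called down, with a median log2 fold change of 0.13. *Slc27a2*, a very-long-chain acyl-CoA synthetase gene, rose by 2.87 on the log2 scale (SE 0.44, edgeR adjusted p = 0.0177), with 6.49 to 22.9 FPKM in HSD17B1TG and 0.809 to 2.92 FPKM in WT, and kept its call with each of the 10 mice left out (adjusted p up to 0.0454). *Cyp27a1*, the sterol 27-hydroxylase gene, was at 16.3 ± 6.41 FPKM in HSD17B1TG and 49.1 ± 28 FPKM in WT (adjusted p = 0.0628 by edgeR). *Ch25h* and *Cyp7b1*, which make the oxysterol ligand of the receptor *Gpr183*, and *Gpr183* itself had log2 fold changes of -0.65, 0.46 and 0.13, with adjusted p between 0.522 and 0.896 by edgeR.

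**Figure D5:**
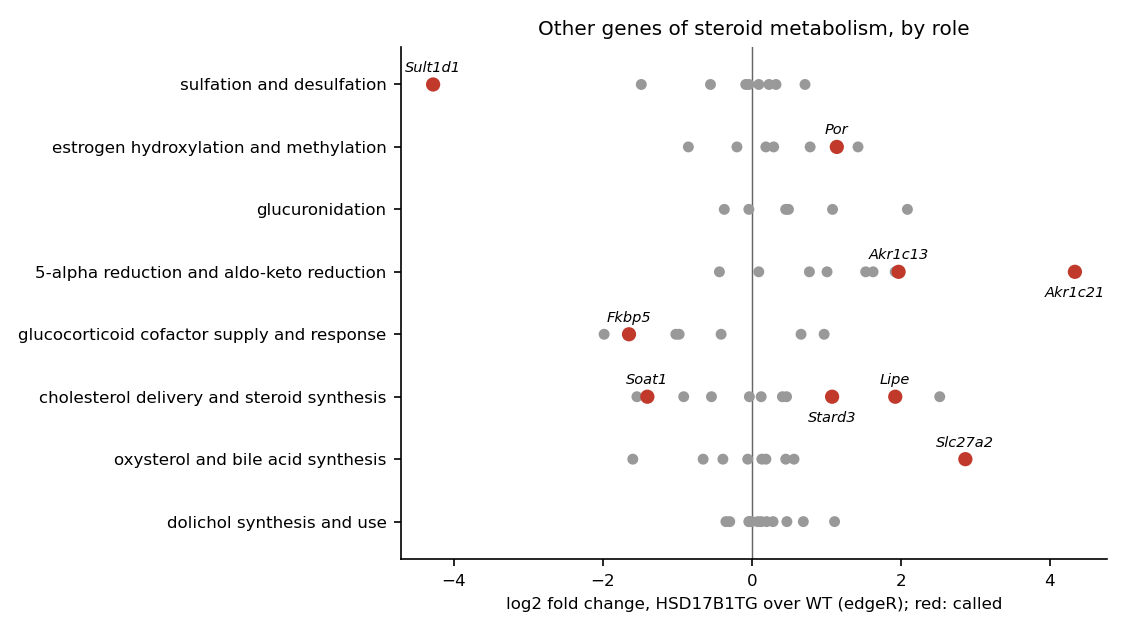
Log2 fold change (HSD17B1TG over WT, edgeR) of the 70 other genes of steroid metabolism that were tested, 1 row per role and 1 point per gene, with the 9 called genes in red and named. The called genes are spread over 6 of the 8 roles, 6 of them up and 3 down.

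Over the 8 lists, 85 of 97 chosen genes are listed in the table and 70 were tested, with 6 called up and 3 down, a median log2 fold change of 0.16 and 28 with an unadjusted p under 0.05. The 9 called of 70 stand beside 4.24% of all genes tested, the 28 beside 26.1%, and the lists were chosen with earlier results of these data known. After upper quartile normalization 5 were called up and 4 down, without the filter 4 and 4, with limma voom 4 and 1, and with DESeq2 9 and 4. The number called depended on the mice. Without WT4 it was 15. It was 3 without WT1, 2 without TG4, TG5, WT2, WT3 or WT5, and 1 without TG2.

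Within a mouse, *Hsd11b2* had the highest level of the 9 genes in all 5 WT mice, at a median of 448 FPKM, followed by *Srd5a3* at 3.97, *Star* at 3.18, *Srd5a1* at 1.85, *Hsd11b1* at 1.25 and *Akr1c18* at 1.13 FPKM. Each neighbour in this WT order after *Hsd11b2* was above the next in 2 or 3 of 5 mice only, so the order from *Srd5a3* to *Akr1c18* was not separated by the spread. In HSD17B1TG the medians were 44.2 FPKM for *Hsd11b2*, 8.5 for *Akr1c18*, 6.95 for *Star*, 3.68 for *Srd5a3*, 2.12 for *Srd5a1* and 2.0 FPKM for *Hsd11b1*. *Hsd11b2* was above *Akr1c18* in 3 of the 5 HSD17B1TG mice, TG4 and TG5 being the exceptions. In both groups *Cyp1b1* came next, at a median of 0.628 FPKM in HSD17B1TG and 0.482 FPKM in WT, and *Sult1e1* and *Hsd3b7* were last.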

How the data were processed

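Uterine mRNA of 5 HSD17B1TG and 5 WT mice was sequenced with paired ends of 150 bp, 1 library per mouse. The authors mapped the reads with HISAT2 2.0.5 on the Ensembl 94 annotation of mouse (GRCm38). The authors deposited raw counts per gene, a signal that is the count divided by a DESeq2 size factor, and FPKM scaled by the same size factors. The deposited log2 fold changes and p-values are the authors' own comparison and were not used. The sources used here name neither the counting program nor its strand setting.

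Genes were kept by filterByExpr, and edgeR 4.0.16 (R 4.3.3) was run on the raw counts with TMM factors and its quasi-likelihood test, with thresholds from the study's methods. Standard errors were taken from the log2 fold change and the F statistic. FPKM of single genes were compared over the 252 assignments of the mice. On simulated data for HSD17B1TG against WT, the test recovered 100 of 100 changes of 4-fold and 41 of 100 of 2-fold. It made 2 false calls among 17295 genes. The simulation gave every gene the same dispersion of 0.1 and placed changes only in genes with a mean count over 100. Its rates do not cover genes that varied more between mice, as *Hsd11b2*, *Hsd11b1*, *Cyp1b1* and *Akr1c18* did. The genes and lists were chosen with earlier results of these data known. All 9 genes are named, and of each role list the called genes and some of those with the smallest p or of fixed interest. Alternatives were RLE and upper quartile normalization, no filter, DESeq2 1.42.0, limma 3.58.1 with voom or on log2(FPKM + 1) and log2(FPKM + 0.1), and each mouse left out. The fit without WT3 and WT5 and the scaling of *Hsd11b2* to marker sums were chosen after seeing the data. At the lowest total, 3 counts are 0.202 CPM. Overlapping genes are those of GENCODE M21, in which the coordinates of *Cyp1b1* differ from those of the table.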

Additional observations from a re-analysis of the deposited data

Results flagged for a closer look

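In groups of 5 mice, a mouse was marked when its gap to the nearest other mouse exceeded Dixon's 95% limit of 0.71 of the group's range. Chance marks about 1 in 20 groups where values are normally distributed. FPKM cannot fall below 0 and were skewed in several groups, so the chance rate here is not known. In all, 7 of 77 groups were marked, 4 of them among 19 groups of the 9 genes and the ratio. WT5 was marked for *Hsd11b1*, at 30.6 FPKM with the next WT mouse at 1.26, and for *Akr1c18*, at 75.6 FPKM with the next at 19.5. WT3 was marked for *Cyp1b1*, at 9.71 FPKM with the next at 1.04. TG3 was marked for *Sult1e1*, at 0.385 FPKM with the next at 0.0999. Among the genes of the role lists, TG5 was marked for *Sult1d1* (7.21 FPKM), WT4 for *Nqo1* (10.3 FPKM) and WT1 for *Akr1c21* (0.244 FPKM).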

How the results depend on the processing

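*Hsd11b2* kept its direction under every alternative run, at -3.83 to -2.86 with a mouse left out. With all 10 mice it kept its call under every normalization, filter and tool. It lost the call with 5 of the 10 mice left out in turn (adjusted p between 0.0523 and 0.0668) and without WT3 and WT5 together (-3.27, adjusted p = 0.147). The log2 ratio of *Hsd11b1* to *Hsd11b2* differed by 3.13 to 3.30 with other pseudocounts or CPM, and by 2.59 to 4.18 with a mouse left out, where 9 of 10 exact p were above 0.05, between 0.0635 and 0.0952. *Star* lay between 0.65 and 1.28 with a mouse left out. Signs changed, in no case past the threshold, for *Cyp1b1* with voom (0.20), on log2(FPKM + 0.1) (0.0897), without WT3 (1.58; range -1.46 to 1.58) and without WT3 and WT5 (2.37), and for *Akr1c18* with voom (1.71), on log2(FPKM + 1) (1.01), on log2(FPKM + 0.1) (1.64), without WT5 (1.28; range -0.996 to 1.28) and without WT3 and WT5 (0.95). They also changed for *Srd5a1* without WT5 (0.15; range -0.52 to 0.15) and without WT3 and WT5 (0.33), and for *Hsd11b1* without WT5 (0.73; range -2.30 to 0.73) and without WT3 and WT5 (0.51). The cause was not tested. *Srd5a3* kept its sign throughout. *Sult1e1* and *Hsd3b7* did not pass the filter and gave no fitted value except without it.

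Of all genes, 721 were called, 1597 with DESeq2, and with a mouse left out 65 (TG5), 94 (WT2), 108 (WT5), 115 (TG2), 146 (WT3), 149 (TG4), 245 (WT1), 895 (TG3), 1338 (TG1) or 1554 (WT4). Without WT3 and WT5 edgeR called 0, with 2729 genes at an unadjusted p under 0.05. In the role lists 9 genes were called, 5 with voom, 13 with DESeq2, between 1 and 15 with a mouse left out and 0 by edgeR without WT3 and WT5. With 3 WT mice left, fewer samples enter that fit. No paired analysis was possible because the labels state no replicate numbers or pairs.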
